A study of Rattus norvegicus with 6 samples.

Results

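Cholesterol efflux and apolipoprotein genes are described here in intracranial aneurysm (IA) lesions of the rat. The members are 9 genes of 22081 in the deposited table, taken by exact symbol: the transporters Abca1, Abcg1 and Scarb1, the regulators Nr1h3 and Mylip, the apolipoproteins Apoe, Apoc1 and Apod, and the transfer protein Pltp. All 9 passed the filter on low counts, which kept 15367 genes. RNA was sequenced from 3 unruptured, rupture-prone IA lesions of the anterior or posterior communicating artery and from the remaining circle of Willis, the arterial ring at the base of the brain, of the same 3 animals. Both groups came from female Sprague Dawley rats bought at 10 weeks of age, and all of them had bilateral ovariectomy, ligation of the left carotid, right external carotid and right pterygopalatine arteries and of the left renal artery, and a high-salt chow (8% NaCl) that also held the lysyl oxidase inhibitor 3-aminopropionitrile at 0.12%, until tissue was taken on day 63. The circle of Willis is therefore an artery of an operated, salt-fed animal and not of a healthy one. Day 63 is that of the paper's results and RNA methods, while its animal methods give an earlier day for RNA sequencing. Each library holds a whole dissected piece, so that more cells of a type and more RNA per cell cannot be told apart.

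Cells cannot break down the sterol ring of cholesterol, and a macrophage that takes up lipoproteins or dying cells has to hand the sterol on. ABCA1 loads it onto lipid-poor apolipoproteins, ABCG1 and SR-BI (Scarb1) pass it to formed high-density particles, and APOE secreted by the macrophage itself can serve as an acceptor. Oxysterols that build up in a loaded cell switch on the nuclear receptor LXR alpha (Nr1h3), which with a retinoid X receptor drives Abca1, Abcg1, Apoe, Apoc1, Pltp and Mylip in mouse and human macrophages. In the brain and its coverings APOE also comes from astrocytes, and APOD from glia and fibroblasts.

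The depth was alike in the libraries, at 66420159 to 70705938 counts in the lesions, against 65823027 to 68345446 in the circle of Willis. Markers of arterial smooth muscle summed to 3216 to 8793 CPM (counts scaled to the normalized library size) in the lesions, against 5629 to 16958 in the circle of Willis, and those of endothelium to 814 to 1753 in the lesions and 1823 to 2029 in the circle of Willis, so that the labelled arteries were present in each library. The lesion of animal 2 also held brain transcripts, with 8063 CPM of 9 oligodendrocyte markers, against 839 and 998 in the other lesions and 238 to 810 in the circle of Willis. Its choroid plexus markers summed to 7300 CPM, against 420 and 704 in the other lesions and 278 to 532 in the circle of Willis. Other libraries held transcripts of nervous tissue too. The 8 neuron markers summed to 41.7, 81.4 and 132 CPM in the circles of Willis of animals 1, 2 and 3, against 30.5, 65.1 and 29.4 in the lesions. The astrocyte marker Gfap had 193, 1335 and 1354 CPM in the lesions, against 171, 445 and 370 in the circle of Willis.

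Abca1, Abcg1 and Apoc1 were higher in the lesion than in the circle of Willis of the same animal by over 1.5-fold in each of 3 animals. No member was lower by that measure. Over all genes tested, 2.75% were higher and 5.51% lower in this way. Groups that did not overlap were found for Abca1, Apoc1 and Pltp, whose 3 lesions all lay above the 3 circles of Willis, as did those of 10.3% of all genes, while 11.6% lay below and no member did. The lesion of animal 3 stood highest for 7 of the 9 genes, all except Apod and Nr1h3. The quasi-likelihood test of edgeR, in which each animal was a block, called none of the 9 at an adjusted p under 0.05, and it called 0% of all genes higher and 0% lower. By its unadjusted p, taken under 0.05, it gave 2 members higher, Abcg1 and Apoc1, and none lower, where 8.63% of all genes were higher and 12% lower. DESeq2 with the same block called 3 members higher, Abca1, Abcg1 and Apoc1, and none lower, where it called 5.38% of all genes higher and 6.37% lower.

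**Figure D1:**
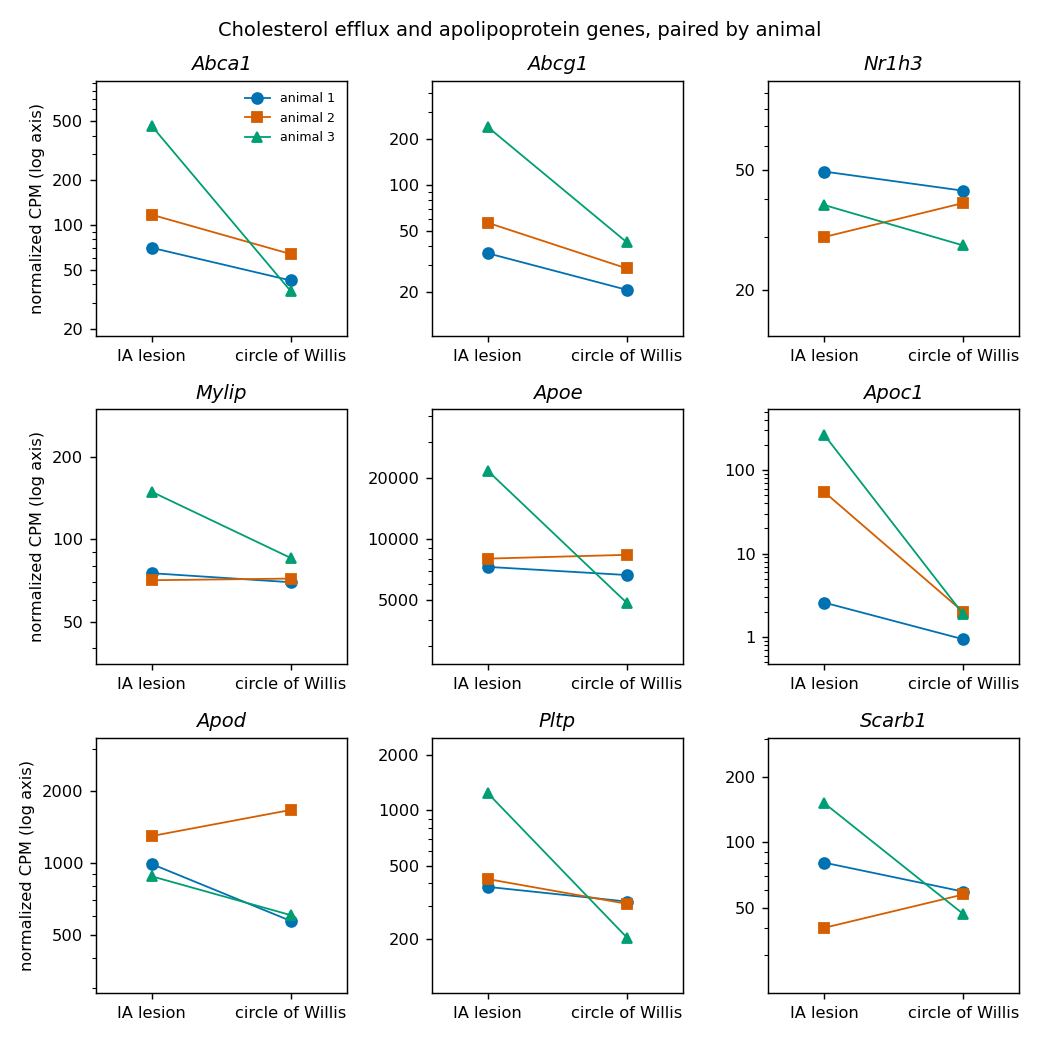
Normalized CPM of the 9 genes on log axes, one point per library, with a line joining IA lesion and circle of Willis of the same animal. The lesion of animal 3 lies above the other libraries for 7 genes, and Abca1, Abcg1 and Apoc1 slope down from lesion to artery in all 3 animals.

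Abca1 (ENSRNOG00000018126, Rnor6 chromosome 5, 69857771 to 69983015, minus strand) had 70.4, 117 and 465 CPM in the lesions of animals 1, 2 and 3, against 42.4, 63.8 and 35.9 in their circles of Willis. The lowest lesion thus lay above the highest circle of Willis, and the circle of Willis of animal 3 was the lowest library of all. The ratio was 1.66-fold, 1.84-fold and 12.98-fold, a mean log2 ratio of 1.77 ± 0.96 (standard error, n = 3; edgeR adjusted p = 0.256). Animal 3 set this mean, since without it the fitted log2 ratio was 0.81, against 1.70 with it.

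Abcg1 (ENSRNOG00000001158, Rnor6 chromosome 20, 9743269 to 9840489, plus strand) had 35.8, 56.7 and 239 CPM in the lesions, against 20.6, 28.5 and 42.1 in the circle of Willis. Here the lesion of animal 1 lay below the circle of Willis of animal 3, so that the groups overlapped, although the lesion was higher within every animal. The folds were 1.74, 1.99 and 5.67, a mean log2 ratio of 1.43 ± 0.54 (standard error, n = 3; edgeR adjusted p = 0.202). Without animal 3 the fitted log2 ratio was 0.89, against 1.42 with it. In TPM, which is scaled by transcript length, Abca1 stood at 73.9, 78.0 and 73.3 per 100 of Abcg1 in the lesions, and at 77.3, 84.3 and 32.1 in the circle of Willis. Both transporters thus kept nearly the same proportion in 5 libraries, and the circle of Willis of animal 3 was the exception.

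Scarb1 (ENSRNOG00000000981, Rnor6 chromosome 12, 36694960 to 36761455, plus strand), the high-density lipoprotein receptor, did not follow them in animal 2. It had 80.7, 40.3 and 152 CPM in the lesions, against 59.2, 57.5 and 46.6 in the circle of Willis. The lesion of animal 2 was the lowest library and that of animal 3 the highest, so that the groups overlapped. The folds were 1.36, 0.701 and 3.26, with a mean log2 ratio of 0.55 ± 0.64 (standard error, n = 3; edgeR adjusted p = 0.509).

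The promoter of Abca1 is printed because it was the one matched member promoter with a run of letters near the DR4 repeat, the motif of an LXR and retinoid X receptor pair. It is the RefSeq window on build GRCr8 at chr5:72596424-72596723, minus strand, written 5′ to 3′ on the strand of the gene from 250 bases before its start to 50 bases after it. Capitals mark a DR4 match on the reverse strand, that is AGGTCA, 4 free bases and AGGTCA again with 3 of the 12 fixed letters differing, which begins 70 bases before the start, and an E-box (CACGTG) 149 bases before it.
Abca1: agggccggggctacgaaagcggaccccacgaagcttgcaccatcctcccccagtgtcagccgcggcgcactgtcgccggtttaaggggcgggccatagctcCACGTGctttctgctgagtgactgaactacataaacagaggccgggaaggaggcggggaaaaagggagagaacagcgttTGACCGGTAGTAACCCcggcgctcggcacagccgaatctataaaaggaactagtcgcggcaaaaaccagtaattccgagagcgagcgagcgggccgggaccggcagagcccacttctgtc
RefSeq windows were matched for 7 of the 9 members, 10 windows in all, and with up to 3 mismatches on either strand a DR4 match was found for Abca1 only. At that stringency 21.9% of 33469 windows of all genes hold one, and the E-box stands in 6.42% of them, so that a match is a description of the letters.

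Nr1h3 (ENSRNOG00000013172, Rnor6 chromosome 3, 80004130 to 80012750, minus strand), which encodes LXR alpha, ranged less between libraries than Abca1 or Abcg1 did. It had 49.4, 29.9 and 38.2 CPM in the lesions, against 42.6, 38.8 and 28.0 in the circle of Willis. The groups overlapped, and the lesion was higher in animals 1 and 3 and lower in animal 2. The folds were 1.16, 0.770 and 1.36, a mean log2 ratio of 0.09 ± 0.24 (standard error, n = 3; edgeR adjusted p = 0.799). Abca1 stood at 22.5, 62.1 and 193 TPM per 100 TPM of Nr1h3 in the lesions, against 15.7, 26.0 and 20.2 in the circle of Willis.

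Mylip (ENSRNOG00000017579, Rnor6 chromosome 17, 19682040 to 19703681, minus strand) encodes IDOL, a ubiquitin ligase that marks lipoprotein receptors for breakdown. Its CPM was 75.2, 70.8 and 149 in the lesions, against 69.7, 71.8 and 85.4 in the circle of Willis. Only the lesion of animal 3 stood away from the other 5 libraries, with folds of 1.08, 0.986 and 1.75 and a mean log2 ratio of 0.30 ± 0.26 (standard error, n = 3; edgeR adjusted p = 0.427).

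Apoc1 (ENSRNOG00000018426, Rnor6 chromosome 1, 80606638 to 80609921, minus strand), a small apolipoprotein of macrophages and liver, showed the largest ratio of the 9 genes in each animal. It had 170, 3738 and 18544 raw counts in the lesions, against 64, 133 and 129 in the circle of Willis. In CPM these were 2.60, 54.8 and 265 in the lesions, against 0.944, 2.00 and 1.88 in the circle of Willis. The groups did not overlap, but the lesion of animal 1 was only just above the highest circle of Willis, and the lesions spanned a far wider range than the arteries. The folds were 2.75, 27.4 and 141, a mean log2 ratio of 4.43 ± 1.65 (standard error, n = 3; edgeR adjusted p = 0.205). The fitted log2 ratio was 5.99 without animal 1, 4.46 without animal 2 and 3.18 without animal 3, against 4.62 with all animals. Its rank by TPM among all genes was 8050, 692 and 175 in the lesions, against 11085, 9209 and 9392 in the circle of Willis.

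Apoe (ENSRNOG00000018454, Rnor6 chromosome 1, 80612895 to 80617057, minus strand) lies 2973 bases from Apoc1 with no gene of the table between them, and its level was far higher. It had 6402, 8348 and 20694 TPM in the lesions, against 6348, 8349 and 4649 in the circle of Willis, and it was the second most abundant gene by TPM in the lesion of animal 3. In CPM the lesions had 7295, 8010 and 21603 and the circle of Willis 6652, 8361 and 4844. In animals 1 and 2 the lesion was close to its own artery, and in animal 3 it was the highest library beside the lowest circle of Willis. The folds were 1.10, 0.958 and 4.46, a mean log2 ratio of 0.74 ± 0.71 (standard error, n = 3; edgeR adjusted p = 0.468). Without animal 3 the fitted log2 ratio was 0.04, against 0.72 with it. The pair thus differed in every animal, as Apoc1 had folds of 2.75, 27.4 and 141, beside 1.10, 0.958 and 4.46 for Apoe. Apoc1 stood at 0.119, 2.28 and 4.08 TPM per 100 TPM of Apoe in the lesions, against 0.0472, 0.0797 and 0.129 in the circle of Willis.

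The genes on either side of the pair gave varied ratios. Apoc4, the next apolipoprotein gene of the cluster, had 0.947, 1.88 and 24.3 CPM in the lesions, against 1.06, 1.81 and 0.888 in the circle of Willis, so that only the lesion of animal 3 stood apart. Tomm40, a mitochondrial import channel next to Apoe, had log2 ratios of -0.43, -0.18 and -0.22, and Nectin2, an adhesion protein, had -0.01, 0.48 and 0.66. Bcam, a laminin receptor of vessels, had -0.22, -1.02 and -2.40. EdgeR called 0 of 6 neighbours tested, 0 had an unadjusted p under 0.05 and DESeq2 called 1 lower, Bcam (DESeq2 adjusted p = 0.041).

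**Figure D2:**
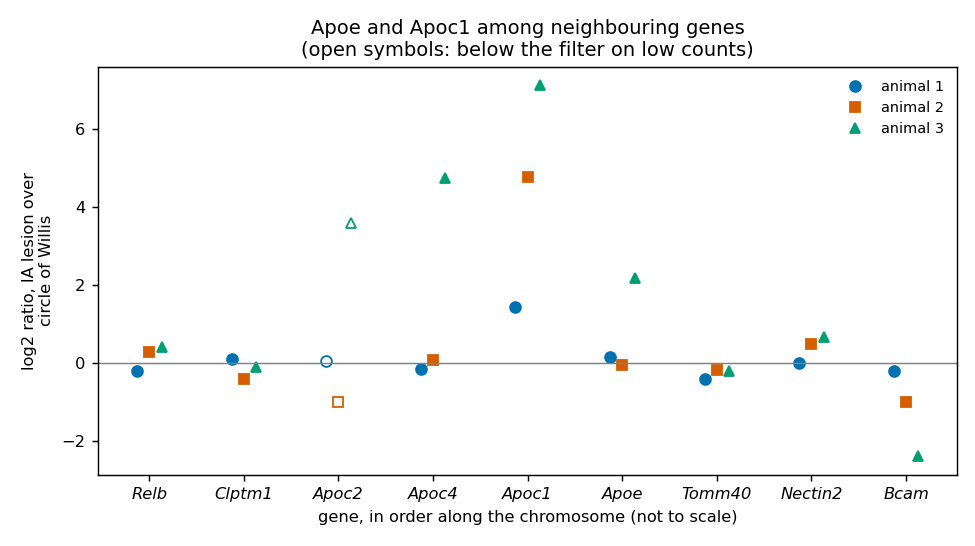
Log2 ratio of IA lesion over circle of Willis for Apoe, Apoc1 and 7 neighbouring genes in their order along chromosome 1 (not to scale), one symbol per animal, with open symbols for a gene below the filter on low counts. Apoc1 lies at 1.43, 4.76 and 7.12 in animals 1, 2 and 3 and Apoe at 0.13, -0.06 and 2.16, while Tomm40 on the other side lies between -0.43 and -0.18.

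Apod (ENSRNOG00000048273, Rnor6 chromosome 11, 72705129 to 72726301, plus strand), a lipocalin and not a classical lipoprotein acceptor, varied by animal more than by tissue. Its CPM was 992, 1298 and 881 in the lesions, against 573, 1670 and 606 in the circle of Willis. Animal 2 had the highest value in both tissues, and the groups overlapped. The folds were 1.73, 0.777 and 1.45, a mean log2 ratio of 0.32 ± 0.35 (standard error, n = 3; edgeR adjusted p = 0.527).

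Pltp (ENSRNOG00000016488, Rnor6 chromosome 3, 161304469 to 161322289, minus strand), which remodels high-density particles by moving phospholipid, had 382, 422 and 1239 CPM in the lesions, against 318, 309 and 202 in the circle of Willis. All 3 lesions were above all 3 circles of Willis, by a small margin in animals 1 and 2. The folds were 1.20, 1.37 and 6.12, a mean log2 ratio of 1.11 ± 0.75 (standard error, n = 3; edgeR adjusted p = 0.313), and without animal 3 the fitted log2 ratio was 0.36, against 1.08 with it. Pltp shares 157 bases with Ctsa, the lysosomal protective protein on the opposite strand, and the sources used here do not say whether the counting used strand. Ctsa had folds of 1.21, 1.37 and 2.44, and the part of shared reads in the values of Pltp was not tested.

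**Figure D3:**
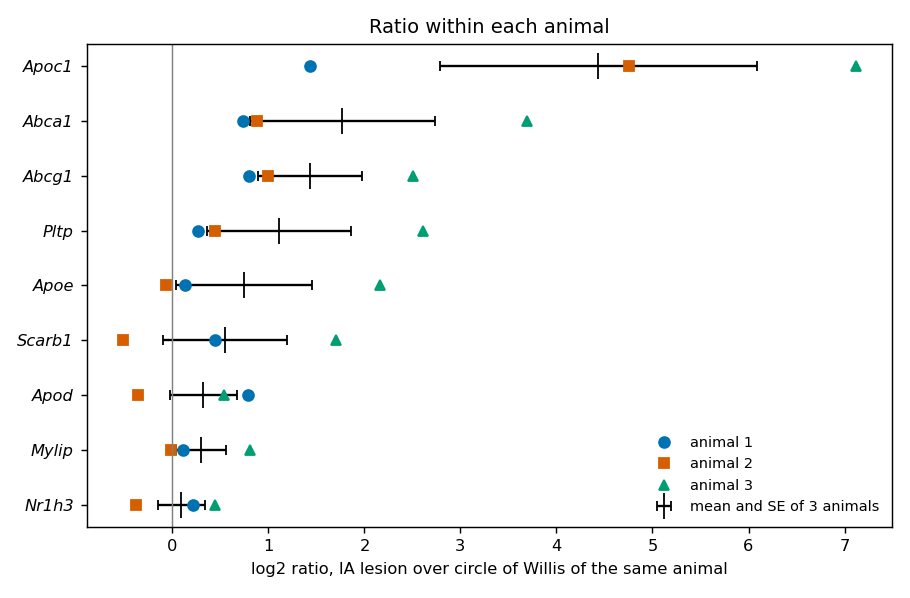
Log2 ratio of IA lesion over the circle of Willis of the same animal for each of the 9 genes, one symbol per animal, with the mean and standard error of 3 animals in black. Apoc1, Abca1, Abcg1 and Pltp lie to the right of 0 in every animal, and animal 3 is the rightmost symbol for all genes but Apod.

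By TPM, the order of the genes in the lesions was Apoe, at 11814 ± 7751 TPM (SD, n = 3), Apod at 1654 ± 463, Pltp at 502 ± 356 and Apoc1 at 348 ± 440, followed by Scarb1, Mylip, Abcg1, Nr1h3 and Abca1 at means of 53.1 to 31.6 TPM. Apoe, Apod and Pltp were separate from each other in all 3 lesions, while each gene from Apoc1 down overlapped with the one above it. In the circle of Willis the order was Apoe, at 6449 ± 1852 TPM, Apod at 1508 ± 1031 and Pltp at 206 ± 49.7 (SD, n = 3 each), again with no overlap. Mylip, Nr1h3 and Scarb1 followed, at 37.2, 33.7 and 32.6 TPM with overlapping ranges, and Abcg1, Abca1 and Apoc1 came last at 11.8, 6.95 and 5.22 TPM. The place of Apoc1 differed between lesions, since at 7.59 TPM it was the lowest of the 9 in the lesion of animal 1, against 190 and 845 TPM in the other lesions.

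The number of genes with a large ratio was not the same in each animal. Over 1.5-fold higher in the lesion were 4 of the 9 in animal 1, 3 in animal 2 and 7 in animal 3, and none was over 1.5-fold lower in any animal. Over all genes tested 8.51%, 18.6% and 17.8% were higher to that extent in animals 1, 2 and 3, and 17.5%, 18.7% and 24.6% were lower. With all animals the fitted log2 ratio was 1.70 for Abca1, 1.42 for Abcg1, 0.72 for Apoe, 1.08 for Pltp and 0.54 for Scarb1. Without animal 2, whose lesion held brain transcripts, it was 2.21, 1.65, 1.14, 1.44 and 1.08 for these genes in turn. Leaving out animal 1 gave higher values as well, at 2.32, 1.78, 1.08, 1.56 and 0.63. For Apoc1 it was 4.46 without animal 2 and 5.99 without animal 1, against 4.62 with all animals. The median log2 ratio of the 9 genes was 0.45, -0.02 and 2.16, beside 0.00, -0.05 and -0.04 for all genes.

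Macrophage markers summed higher in the lesion of every animal, including animal 2, in which 4 of the 9 genes were higher and 5 lower than in the artery. The 14 macrophage markers found summed to 3342, 4993 and 10641 CPM in the lesions, against 2662, 1530 and 2742 in the circle of Willis, folds of 1.26, 3.26 and 3.88. The range of the lesions, 3342 to 10641 CPM, lay above that of the circle of Willis, 1530 to 2742 CPM, and no marker was at 0. In animal 1 the sum was led by the marker Lyz2, at 2082 CPM in the lesion and 1381 in the circle of Willis. The median log2 ratio of the 14 markers was -0.06, 1.53 and 1.44 in animals 1, 2 and 3, so that in animal 1 most markers did not share the rise of the sum. With unadjusted edgeR p under 0.05, 6 of the 14 stood higher and 1 lower, namely Cd163, a scavenger receptor of resident macrophages, with log2 ratios of -1.59, -1.48 and -0.63. The 12 markers of lipid-laden macrophages, such as the lysosomal glycoprotein Gpnmb, summed to 1538, 4889 and 7959 CPM in the lesions, against 475, 689 and 754 in the circle of Willis. Of these 12, 8 stood higher and 0 lower with an unadjusted edgeR p under 0.05, and no marker was at 0. The folds of the sum were 3.24, 7.10 and 10.6 in animals 1, 2 and 3, and the median log2 ratios of the 12 markers 1.27, 2.24 and 3.12. Gpnmb led the sum in the lesions of animals 1 and 3, at 681 and 4344 CPM, and Spp1 in that of animal 2, at 2532 CPM. Some markers went the other way in an animal. Msr1, Cd36 and Plin2 had folds of 0.541, 0.924 and 0.853 in animal 1, Lpl 0.590 in animal 2 and Cd9 0.514 in animal 3. The part of macrophage number in the values of the 9 genes was not tested.

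Astrocyte markers, of which 8 were tested, summed to 822, 1760 and 1892 CPM in the lesions, against 941, 1389 and 1072 in the circle of Willis, of which 2 stood higher and 2 lower with an unadjusted edgeR p under 0.05 and none was at 0. Oligodendrocyte markers had folds of 3.14, 33.9 and 1.23 in animals 1, 2 and 3. Arterial smooth muscle markers had folds of 0.798, 1.47 and 0.190, and the lesion of animal 3 held the least of them. Microglia markers summed to 121, 297 and 348 CPM in the lesions, against 111, 117 and 108 in the circle of Willis. Neutrophil markers summed to 18.2, 177 and 64.8 CPM in the lesions, against 14.1, 11.1 and 14.1 in the circle of Willis. Of the 7 neutrophil markers tested, 2 stood higher and 0 lower with an unadjusted edgeR p under 0.05. Their median log2 ratio was 0.22, 4.04 and 1.83 in animals 1, 2 and 3. Mpo, whose protein the paper used as the neutrophil marker, had few counts. They were 25, 4 and 1 in the lesions, against 22, 11 and 10 in the circle of Willis. The 9 fibroblast and meningeal markers did not share a direction, with 2 higher and 3 lower by unadjusted edgeR p under 0.05. The collagen gene Col1a1 had folds of 1.34, 7.69 and 8.85 and Col3a1 1.09, 3.20 and 3.00, while Ptgds, a prostaglandin synthase of the meninges, had 0.882, 0.206 and 0.284. The part of these cells in the values of the 9 genes was not tested.

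**Figure D4:**
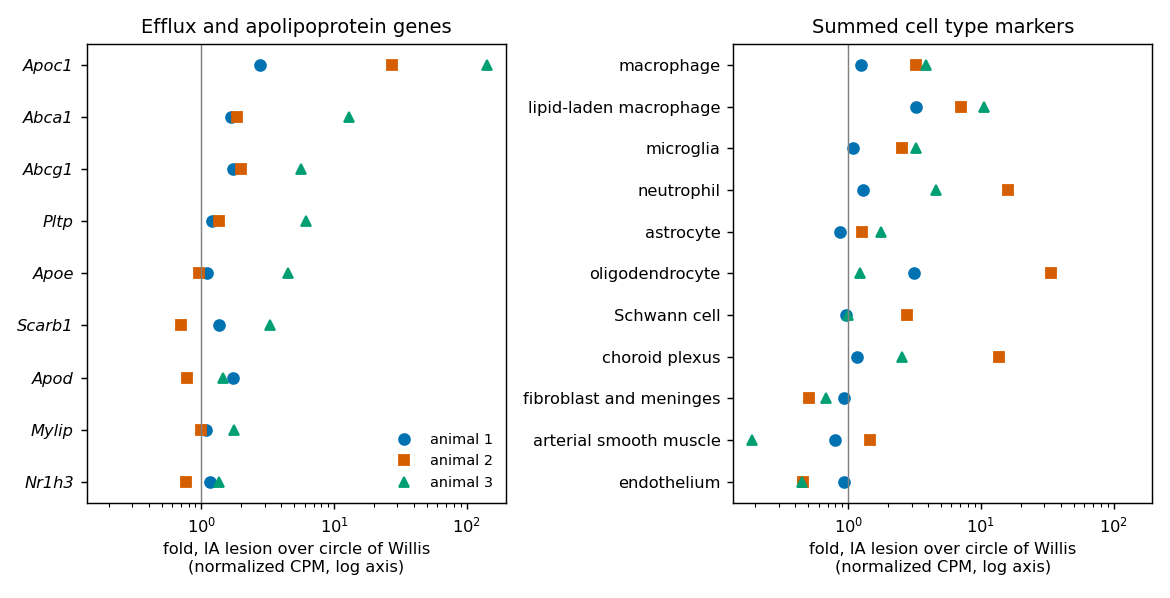
Fold of normalized CPM, IA lesion over circle of Willis of the same animal, on log axes for the 9 genes (left) and for the summed markers of 11 cell types (right), one symbol per animal. On the left, animal 3 leads for Apoc1 (141-fold). On the right, animal 3 leads for macrophage markers (3.88-fold) and animal 2 for oligodendrocyte markers (33.9-fold).

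Among 9 partners and further targets of LXR that were tested, edgeR called 0 after adjustment, and 1 stood higher and 0 lower with an unadjusted p under 0.05. Their median log2 ratio was 0.03, beside -0.03 over all genes. The one was Smpdl3a, a phosphodiesterase that LXR induces in human macrophages, with 54.7, 119 and 418 CPM in the lesions, against 24.7, 41.7 and 39.1 in the circle of Willis. Its groups did not overlap, and its mean log2 ratio was 2.02 ± 0.70 (standard error, n = 3; edgeR adjusted p = 0.195, DESeq2 adjusted p = 0.000298). Of the lipogenic targets, Srebf1 had log2 ratios of 0.21, -0.57 and 0.45 and Fasn, fatty acid synthase, had 0.05, -0.13 and 0.43. Scd varied more between animals, at -0.15, -1.31 and 1.42. The partner receptors Rxra and Rxrg had mean log2 ratios of -0.34 ± 0.34 and -0.30 ± 0.30, and Lpcat3, which remodels membrane phospholipid, had 0.24 ± 0.32 (standard error, n = 3 each).

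Among 15 other sterol transport and oxysterol genes, edgeR called 0 after adjustment, and 3 stood higher and 2 lower with an unadjusted p under 0.05. DESeq2 called 3 higher, Npc1, Npc2 and Lcat (DESeq2 adjusted p = 0.00483, 0.0111 and 0.00182). It called 3 lower, Abca5, Abcg4 and Ch25h (DESeq2 adjusted p = 0.00239, 0.0283 and 0.0481). The median log2 ratio of the 15 genes was 0.37. Npc1 and Npc2, which together move cholesterol out of lysosomes, had 47.1, 61.3 and 136 CPM and 566, 577 and 1325 CPM in the lesions, against 29.6, 30.8 and 29.4 CPM and 416, 304 and 361 CPM in the circle of Willis. The lesions lay above the circles of Willis for both genes. Lcat, which esterifies cholesterol on high-density particles, had 28.4, 31.3 and 67.2 CPM in the lesions, against 16.9, 16.3 and 19.8 in the circle of Willis (mean log2 ratio 1.15 ± 0.31, standard error, n = 3; edgeR adjusted p = 0.181). On the lower side, the transporter Abca5 had 2.84, 2.42 and 1.60 CPM in the lesions, against 5.41, 7.08 and 5.56 in the circle of Willis (mean log2 ratio -1.41 ± 0.25, standard error, n = 3; edgeR adjusted p = 0.181). Ch25h, which makes the oxysterol 25-hydroxycholesterol, had a mean log2 ratio of -0.85 ± 0.34 (standard error, n = 3; edgeR adjusted p = 0.208).

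Among 7 other apolipoproteins tested, edgeR called 0 after adjustment, and 0 stood higher and 2 lower with an unadjusted p under 0.05. DESeq2 called 0 higher and 1 lower, Clu (DESeq2 adjusted p = 0.0284). Clu, or apolipoprotein J, had 2345, 1932 and 1221 CPM in the lesions, against 2820, 3786 and 2606 in the circle of Willis, with no overlap (mean log2 ratio -0.78 ± 0.26, standard error, n = 3; edgeR adjusted p = 0.22). Apob, the protein of LDL, stood at or below 0.59 CPM in every library and had a mean log2 ratio of -1.78 ± 0.60 (standard error, n = 3). Apom, a carrier of sphingosine phosphate on high-density particles, had 0.25 ± 0.21 (standard error, n = 3). Among 9 lipoprotein receptors and their regulators, whose median log2 ratio was -0.42, edgeR called 0 after adjustment, and 1 stood lower with an unadjusted p under 0.05, the lipolysis-stimulated receptor Lsr of brain endothelium, with a mean log2 ratio of -0.83 ± 0.34 (standard error, n = 3; edgeR adjusted p = 0.209). Sort1, a sorting receptor, and Lrpap1, a receptor chaperone, had mean log2 ratios of -0.42 ± 0.22 and -0.24 ± 0.08 (standard error, n = 3 each).

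The genes with the most similar pattern over the 6 libraries, which come from 3 animals, were sought among 9528 well-expressed genes. For Apoc1 they were P2rx4, Eif4e2 and Ap2s1 (Pearson r = 0.997, 0.996 and 0.996). For Abca1 they were Coro1b, Snx5 and Wdr91 (r = 0.998, 0.997 and 0.994), for Apoe Tpp1, Gnpda1 and Ghdc (r = 0.996, 0.990 and 0.983), and for Nr1h3 Stat2, Dhx58 and Ssrp1 (r = 0.999, 0.994 and 0.991). These values describe 6 points that share animals, and for Apoc1, Abca1 and Apoe they are led by the lesion of animal 3. A high r does not mean a like size of difference, as Coro1b had log2 ratios of 0.09, 0.12 and 0.42, beside 0.73, 0.88 and 3.70 for Abca1.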

How the data were processed

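Polyadenylated RNA was prepared with a stranded kit (TruSeq stranded mRNA) and sequenced in pairs. CLC genomics workbench served the authors for mapping to Rnor6. CASAVA is named in the submitters' processing notes. The authors deposited a raw count per gene and library and a TPM scaled by length. RPKM and a scaled CPM were not used. The table also holds the authors' own comparisons (fold changes and p-values), which were not used. Groups came from the sample labels. That libraries of the same number share an animal was taken from the labels together with the study's methods.

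Counts of 15367 genes kept by filterByExpr, a rule on low counts, were tested with edgeR (version 4.0.16, R version 4.3.3): TMM factors, glmQLFit and glmQLFTest with the animal as a block, and Benjamini-Hochberg adjustment over all genes, called under 0.05. P-values rest on 3 animals. The deviations of lesion and artery of one animal correlated across genes at 0.39, 0.30 and 0.07, and the pairing itself comes from the animal. Normalized CPM is the count scaled to the TMM-adjusted library size. Log2 ratios within an animal used a prior count of 2, which understates changes of genes with few counts, and standard errors come from 3 such ratios. Fitted log2 ratios are those of edgeR. The fold of 1.5 is that of the study, which also asked for over-expression in every lesion. It was applied here to normalized CPM within every animal. DESeq2 (version 1.42.0), limma-voom (limma version 3.58.1), other scalings, no filter, no mitochondrial genes, no block and each animal left out were the alternatives. The steps were tested on simulated data with a common spread for all genes and no difference between animals. That test therefore does not show how the steps perform with the spread between animals seen here.

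The 9 members and the gene and marker lists were chosen with earlier results of these data known. Named genes are the members and up to 4 of each pathway list with the smallest p. Chosen after their values were seen were Npc2, Srebf1, Fasn, Scd, Abcg4, Apoa4, Soat1, Vldlr and Ctsa. So were the marker genes Gpnmb, Spp1, Msr1, Cd36, Plin2, Lpl, Cd9, Cd163, Lyz2, Mpo, Gfap, Col1a1, Col3a1 and Ptgds. Promoters are RefSeq windows of build GRCr8. Listed symbols that the table does not hold, such as Itgam and Pecam1, were not analysed here, and 1 gene that the naming rule selects is not reported here.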

Additional observations from a re-analysis of the deposited data

How the results depend on the processing

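With 3 animals the calls depended on the tool. DESeq2 with the replicate block called 3 of the 9 genes, Abca1, Abcg1 and Apoc1 (DESeq2 adjusted p = 0.0208, 0.00385 and 0.00529), and 826 genes higher and 979 lower over all genes, where edgeR and limma-voom called 0. Without the replicate block edgeR called 0 of the 9 and 1 gene lower over all genes. No call of the 9 genes differed between edgeR with and without the block. The cause was not tested. Leaving out one animal gave 0 to 0 calls of the 9 by edgeR, and 3 to 3 genes over 1.5-fold higher in each remaining animal. At over 2-fold in each animal 1 gene remained, Apoc1. Of 90 fitted log2 ratios under the alternatives, 2 changed sign, both near 0: leaving out one animal gave -0.081 to 0.33 for Nr1h3 and -0.032 to 1.08 for Scarb1, below 0 without animal 3. The adjusted p over the alternatives ran between 0.0208 and 0.52 for Abca1, 0.00385 and 0.52 for Abcg1, and 0.00529 and 0.523 for Apoc1. Apoc1 had the fewest counts of the 9 in the circle of Willis, 64 to 133, and so the largest counting error there.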

Other observations

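A few further genes, chosen after their values were seen, stood far higher in one library. Apoc4 had 1698 counts in the lesion of animal 3, against 62 and 128 in the other lesions and 61 to 120 in the circle of Willis. Apoa4, an apolipoprotein of the gut, had at most 2 counts in a lesion, against 9, 26 and 547 counts in the circles of Willis, the last being that of animal 3, and it was below the filter on low counts. The circle of Willis of animal 3 also had the highest pituitary markers, at 127 CPM, against 6.16 to 12.99 in the lesions and 11.2 and 22.1 in the other circles of Willis.

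Soat1, which stores cholesterol as ester, had log2 ratios of -0.94, 1.29 and 1.54 (edgeR adjusted p = 0.512), beside 0.73, 0.88 and 3.70 for Abca1. Vldlr, a lipoprotein receptor, was high in one lesion, at 30.3, 120 and 33.3 CPM in the lesions, against 29.0, 29.0 and 47.3 in the circle of Willis.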
